A study of Acipenser sturio with 24 samples.

Results

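Maternal RNA is the RNA that the egg receives from the mother, and the embryo lives on it until its own genome is transcribed. In fish and frogs many maternal transcripts are then degraded, first by factors already stored in the egg and later by factors that the embryo makes, and zygotic transcripts take their place. A transcript that is high in the egg and low for the rest of development, with no later return, is the usual sign of this clearance in a time course of whole embryos.

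The components described here were abundant from the egg to mid gastrula and low by mid neurula in a developmental series of sturgeon. A component is one entry of the assembled transcriptome to which the reads were assigned. A member had a mean deposited value of at least 10 over stages 0 to 11, a mean at stages 15 and 16 at least 8-fold below that early mean, and a mean at stages 32 to 36 more than 4-fold below it. The criteria were met by 112 of 275906 components, fewer than the 300 at which the list would have been cut, so none was dropped. Of all components, 4357 reached the early mean, 207 of these also fell 8-fold, and 112 of those also stayed low in late tailbud. The other 4245 components with an early mean of at least 10 are the comparison used throughout.

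Each of 24 stages, from 0 to 36, was represented by 1 library of whole embryos. The labels give the animals as Bester hybrids, a cross between beluga (Huso huso) and sterlet (Acipenser ruthenus), while their organism field names Acipenser sturio. Embryos were raised in diluted MMR, an amphibian saline, and no treatment is recorded, so stage is the one difference between libraries that the labels give. Stages follow the Nieuwkoop-Faber (NF) table, which was drawn up for the frog Xenopus, and the number of embryos per library is not stated. For the comparisons the stages were taken in windows: egg to mid gastrula (0, 4, 8, 9, 10, 10.5 and 11), late gastrula to early neurula (12, 12.5, 13 and 13.5), mid neurula (15 and 16), late neurula (18, 19 and 20), early tailbud (22, 23, 24, 26 and 29) and late tailbud (32, 35 and 36).

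Values are an abundance signal that was normalized before deposit, in a unit that is not stated. Library totals ran from 342953 at stage 12.5 to 679612 at stage 36. Absolute depth is unknown. With stage 36 set to 1, the reads behind each unit of value were fewest at stage 29 (0.628) and most at stage 4 (3.39). The libraries also separated into 2 sets, for which no label gives a reason. Stages 0, 13, 16, 19, 24, 29 and 36 made up the smaller set of 7, and the other 17 libraries the larger set. Where members are given as scaled values, each library was divided by its median ratio to the geometric mean, taken over the 15471 components detected throughout. The lowest such factor was 0.612 (stage 15) and the highest 1.42 (stage 36). In whole embryos, less RNA per cell and fewer cells holding a transcript cannot be told apart. Since the values were normalized, a lower value also does not by itself show that RNA was lost.

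Components carry no gene names in the table and no reference was used, so members are known by their identifiers and no function can be given. The members were chosen by their deposited values at stages 0 to 11, 15, 16, 32, 35 and 36, and values at those 12 stages are descriptions without a test. The remaining 12 libraries, at stages 12 to 13.5, 18 to 20 and 22 to 29, were not used by the rule and carry the tests.

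The early means ranged from 10.1 to 406, with a median of 19.3 and quartiles of 14.3 and 37.9. Of the members, 55 had an early mean of at least 20, 18 of at least 50, 5 of at least 100 and 1 of at least 200. The median early mean of the other components was 20.8. Members were thus mostly of moderate abundance, and 1 component stood far above the rest.

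Within stages 0 to 11 a member's value varied with a median coefficient of variation of 20.6% over the 7 libraries, from 5.06% to 61.4%. The highest early value fell at stage 0 for 37 members, at stage 4 for 23, at stage 8 for 13, at stage 9 for 10, at stage 10 for 14, at stage 10.5 for 9 and at stage 11 for 6. At stage 0 itself 2 members were listed at 0, so the label maternal, read as present in the egg library, was met by all the others. Both were at 31 or more at stage 4 and are described with the smaller library set.

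On log2(scaled value + 1), the median slope over stages 0 to 11 was -0.042 per stage step for members. It was -0.036 for the other early components and -0.006 for all components, so this drift is not particular to members. The slope was negative for 73 members and positive for 39, and its sign was not counted for other components. These 7 libraries chose the members, so the slopes are given as a description without a test.

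**Figure D1:**
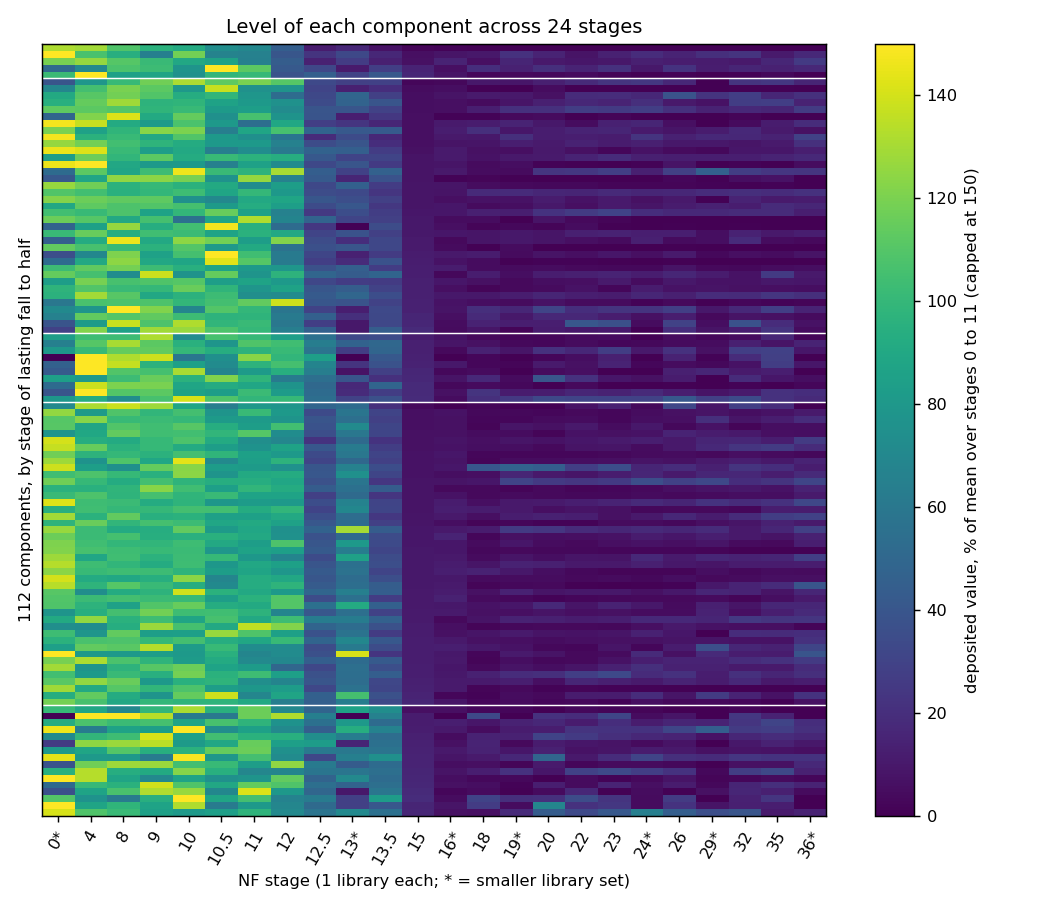
Level of each of the 112 members (rows) at the 24 NF stages (columns, 1 library each), as the deposited value in percent of the member's mean over stages 0 to 11, capped at the top of the colour scale. Rows are ordered by the first stage from which the level stayed at 50% or less, white lines separate these stages, and asterisks mark the smaller library set. The change from light to dark lies between stages 12 and 15 in nearly all rows, and stages 0 and 13 show scattered dark cells.

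Most of the fall lay between stages 12 and 15. Over stages 12, 12.5, 13, 13.5, 15 and 16, the median member's deposited value was 80.2%, 40.3%, 48.0%, 32.1%, 10.5% and 7.76% of its early mean, in that order. The medians of the other components were 90.9%, 58.5%, 82.4%, 68.8%, 50.7% and 55.4%. The deposited values of these abundant early components were thus also lower from stage 12.5 onward at the median, and members fell further. The largest drop in percentage points for members, from stage 12 to 12.5, coincided with the lowest library total.

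In scaled values the median member was at 94.3%, 70.2%, 69.8%, 43.7%, 19.8% and 13.3% of its early mean over those stages in turn. The medians of the other components stayed between 93.3% and 120% over these 6 stages. The fall was later and shallower after scaling.

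Steps between neighbouring stages were read within the larger library set, on log2(value + 1). From stage 12 to 12.5 the median deposited difference was -0.94 for members and -0.60 for others, and the scaled differences were -0.41 and -0.07. From stage 12.5 to 13.5 the deposited medians were -0.22 and 0.19, and the scaled ones -0.55 and -0.15. From stage 13.5 to 15 they were -1.38 and -0.40 deposited and -1.09 and 0.04 scaled. This last step was the deepest of the larger set for members in log2 units on both scales. From stage 11 to 12 the medians were -0.10 for members and 0 for others as deposited, and 0.04 and 0.15 after scaling. The deposited value was lower at stage 12 than at stage 11 in 81 members, but the scaled median did not fall. All 112 members had a lower deposited value at stage 15 than at stage 13.5, which the rule favours, since stage 15 is one of its stages. A drop of at least 1 log2 unit in this step was seen in 91 members (81.2%) and in 17.6% of others as deposited, and in 64 members (57.1%) and 5.58% of others after scaling. From stage 15 to 18, where stage 18 is outside the rule, the medians were -0.32 for members and 0.11 for others as deposited, and -0.64 and -0.26 after scaling.

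Members did not all fall at one stage. The first stage from which the deposited value stayed at or under 50% of the early mean was stage 12 for 5 members, 12.5 for 37, 13 for 10, 13.5 for 44, 15 for 14, 22 for 1 and 26 for 1. In scaled values these were stage 12 for 1 member, 12.5 for 6, 13 for 15, 13.5 for 48, 15 for 36, 22 for 3, 26 for 1 and 32 for 2. The timing of a single member thus depends on the scaling, while stage 13.5 was the commonest on both scales. As deposited, that count also rests on stage 13, of the smaller library set. The quartiles were 33.9% and 48.5% at stage 12.5, so most members were already under 50% there, and 28.9% and 58.7% at stage 13. A member that read over 50% at stage 13 is counted at stage 13.5 or later, whatever its level at stage 12.5.

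**Figure D2:**
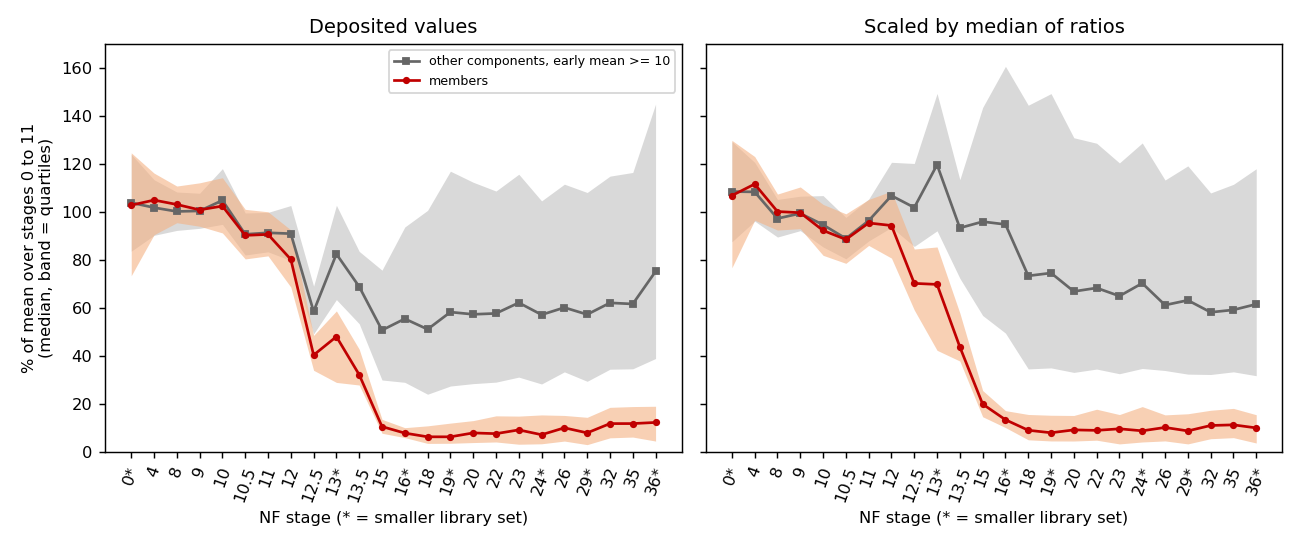
Median level (line) and quartiles (band) of the 112 members (red circles) and the 4245 other components with an early mean of at least 10 (grey squares) by NF stage, in percent of each component's mean over stages 0 to 11, as deposited (left) and scaled by median of ratios (right); asterisks mark the smaller library set. Members were at 10.5% as deposited and 19.8% scaled at stage 15, where others were at 50.7% and 95.9%.

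The depth of the fall at stages 15 and 16, which chose the members, had a median of 10.5-fold, with quartiles of 9.07 and 13.2, and reached 57.3-fold. The same falls in scaled values ran from 4.42 to 31.6-fold with a median of 5.77. The rule applied to scaled values was met by 14 components, all of them members. The other 98 members missed at least 1 criterion on that scale. Their scaled falls had a median of 5.51-fold but reached 17.9-fold (comp247333_c1, early mean 10.4 as deposited). A miss on that scale thus does not always mean a fall of less than 8-fold. With equal column totals 103 members still met the rule, and with unweighted trimmed-mean factors 21 did. Just inside the threshold lay falls of 8.04-fold for comp263771_c1, 8.08-fold for comp271163_c4 and 8.14-fold for comp259290_c0. Just outside lay 7.96-fold for comp260807_c0, 7.92-fold for comp261971_c0 and 7.91-fold for comp258375_c0. A further 236 components fell by 4 to 8-fold and met the other criteria, so the members are the steep end of a continuous range.

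Whether the members also differed between libraries that the rule did not use was tested by comparing late neurula (stages 18 to 20) with late gastrula to early neurula (stages 12 to 13.5). In limma on log2(scaled value + 1), with a Benjamini-Hochberg adjusted p under 0.05, 103 of 112 members (92.0%) were lower in late neurula and 0 were higher. At an unadjusted limma p under 0.05, 0 members and 21193 of all components were higher. The share of all 48817 components tested that was called lower was 9.43%, and 36.9% were called higher. Among the other components with a high early mean, 40.2% were called lower and 14.8% higher. The median log2 change was -2.23 for members, with quartiles of -2.83 and -1.77 and a median SE of 0.331, -0.46 for the other early components and 0.57 for all components. All 112 changes were negative, from -4.36 to -0.32. The rule asks for low values at stages between and after these windows, so the direction is tied to how members were chosen.

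In deposited values every library of stages 12 to 13.5 lay above every library of stages 18 to 20 for 94 of 112 members, against 9.17% of all components kept. The count of members called lower ranged from 92 to 107 over 23 alternatives, while the share of all components called lower ranged from 1.07% to 22.5%. In the larger library set alone 105 members and 8.68% of all components were called lower. The smallest changes belonged to comp264846_c3 at -0.32 (limma adjusted p = 0.392) and comp221687_c0 at -0.49 (adjusted p = 0.287), neither of them called, which were chosen after their values were seen.

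Between late neurula and early tailbud (stages 22 to 29) few members were called in either direction. In limma 1 of 112 members (0.893%) was called lower and 0 higher, where 0.496% of all components were called lower and 1.47% higher. Among the other components with a high early mean, 1.77% were called lower and 1.08% higher. Few calls are thus not particular to members. The shares of all components rest on 242 components lower and 717 higher, and they are not stable. The counts were 0 and 1 without stage 18, 0 and 1 without stage 19, 830 and 2273 without stage 22, and 44 and 141 without stage 26. They were 0 and 0 in the larger library set alone, and 184 and 1230 as deposited. At an unadjusted limma p under 0.05, 3 of 112 members were lower and 8 higher, against 3285 and 6303 of all 48817 components tested. The median log2 change of members was -0.04 scaled, with a range from -1.51 to 1.14 and a median SE of 0.317, and it was 0.10 as deposited, so its sign depends on the scaling. This comparison shares stages 18 to 20 with the preceding one. The windows hold 3 and 5 libraries, and a call that misses the threshold does not show an equal level.

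**Figure D3:**
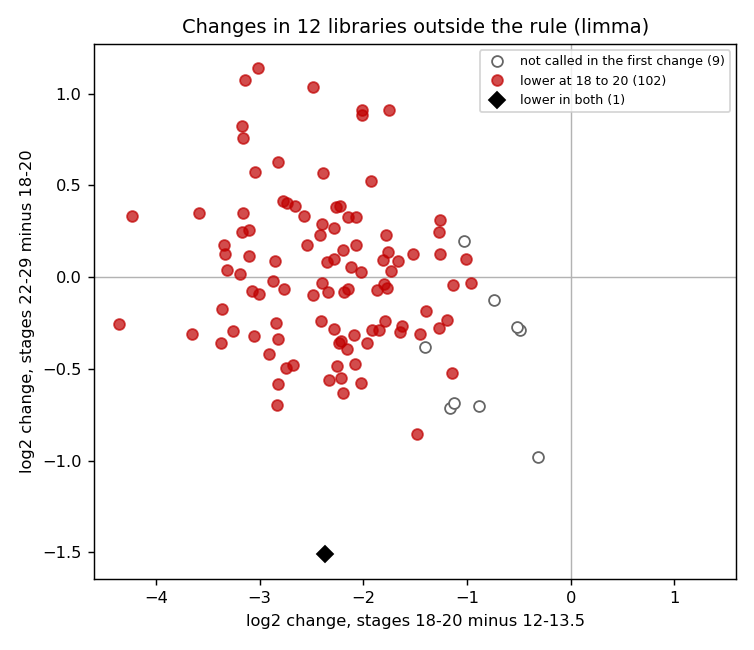
Log2 change of each of the 112 members from stages 12 to 13.5 to stages 18 to 20 (horizontal axis) and from stages 18 to 20 to stages 22 to 29 (vertical axis), both from limma on log2(scaled value + 1). Red points were called lower in the first change, the black diamond in both, and open points in neither; both axes use the libraries of stages 18 to 20. All points lie left of 0, while they spread on both sides of 0 vertically.

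After the fall most members kept a small remainder. In deposited values the median member was at 7.28% of its early mean over stages 18 to 20 (quartiles 3.49% and 12.0%), 9.64% over stages 22 to 29 (4.32% and 14.5%) and 12.4% over stages 32 to 36. In scaled values the medians were 8.94%, 7.90% and 9.09% at stages 18, 19 and 20, and 10.9%, 11.2% and 9.92% at stages 32, 35 and 36, a smaller difference than as deposited. Members under 1% of the early mean numbered 7 over stages 22 to 29 and 10 over stages 32 to 36. Compared with its own deposited mean at stages 15 and 16, a member at stages 22 to 29 was at most 50% in 27 cases, within 2-fold in 69 and at least 2-fold higher in 16. These counts were not made on scaled values and depend on the scale. The scaled median was 19.8% and 13.3% of the early mean at stages 15 and 16, and between 8.66% and 10.1% at stages 22 to 29. In the larger library set the number of members listed at 0 was 0, 5, 3, 6, 3, 3 and 7 at stages 18, 20, 22, 23, 26, 32 and 35. In the smaller set it was 3, 5, 9, 17 and 15 at stages 16, 19, 24, 29 and 36, and stages 29 and 36 are also among the libraries of least relative depth.

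A member with a higher remainder in late neurula tended to have one in early tailbud. Across the 112 members, the percentages at stages 18 to 20 and 22 to 29 had a Spearman rho of 0.801, where both share the early mean as denominator. The early mean itself had a rho of -0.06 with the percentage at stages 22 to 29, which is close to 0.

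The members together made up 0.870% ± 0.0600 (SD, 7 libraries) of the summed value at stages 0 to 11. At stages 18 to 29 their share was 0.0680% ± 0.00656 (SD, 8 libraries), which is 12.8-fold lower. The SDs include development within the window. The fold was 17.3 when the 10 most abundant components of the table were left out of the totals, and 8.58 as a ratio of summed scaled values. At stages 0, 4, 12, 13.5, 15 and 36 the deposited values of all members summed to 3504, 3948, 2905, 1252, 402 and 435.

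**Figure D4:**
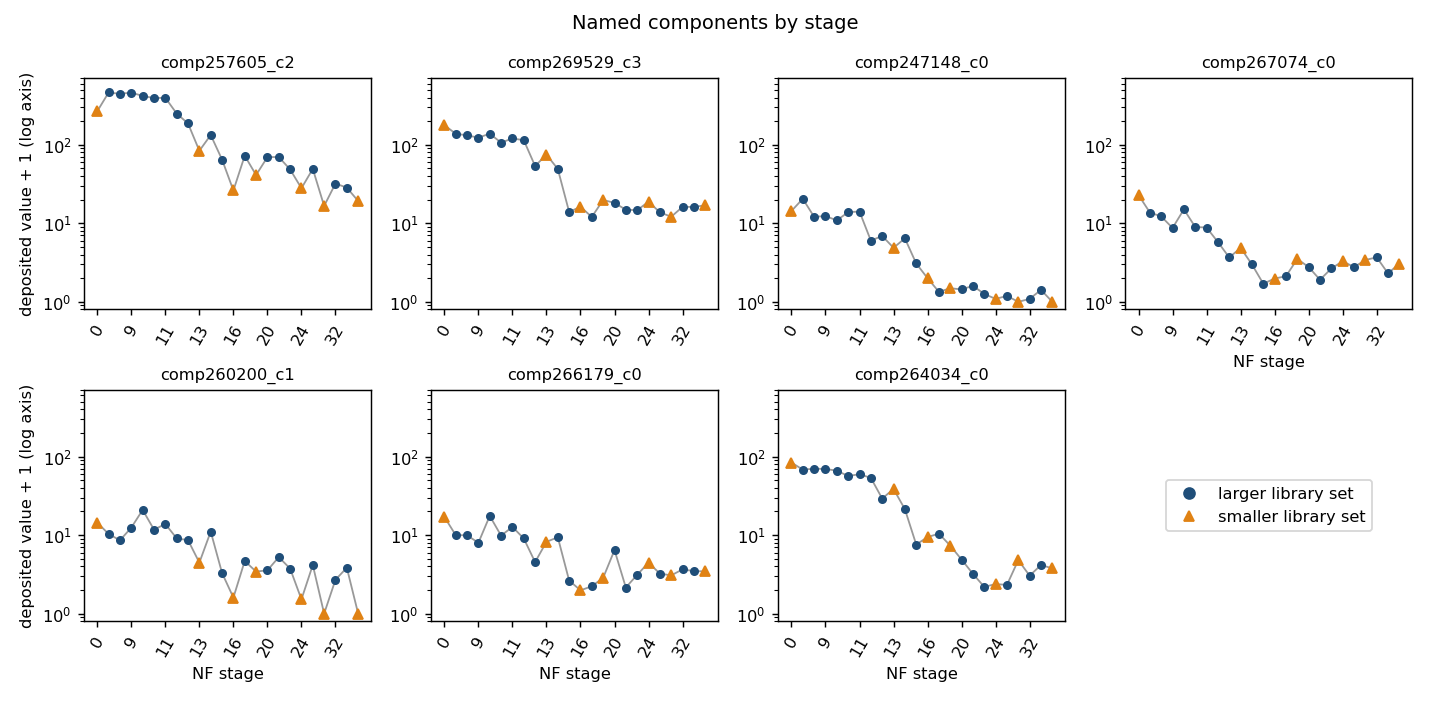
Deposited value + 1 on a log axis for 7 named members at each of the 24 NF stages (1 library each), with circles for the larger and triangles for the smaller library set. comp257605_c2 declines from 406 (early mean) to 18.2 at stage 36 with its triangles below the neighbouring circles, and comp264034_c0 has a second, smaller decline from stages 18 to 23.

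The most abundant member was comp257605_c2, with an early mean of 406 ± 67.8 (SD, 7 libraries). Its early values had a lowest of 267, at stage 0, a median of 418 and a highest of 463. It then stood at 249, 186, 82.9 and 132 at stages 12, 12.5, 13 and 13.5, and at 63.8 and 25.2 at stages 15 and 16. At stages 12 and 15 it was at 0.613 and 0.157 of its early mean, where the median member was at 80.2% and 10.5%.

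In late neurula comp257605_c2 was at 71.5, 40.2 and 68.7 at stages 18, 19 and 20. Values at stages 22, 23, 24, 26 and 29 were 68.9, 47.6, 27.0, 48.3 and 15.6, and those at stages 32, 35 and 36 were 31.1, 27.5 and 18.2. At stages 0, 13, 16, 19, 24, 29 and 36, all of the smaller library set, it was below each neighbouring library. Late neurula lay below late gastrula to early neurula without overlap, and the log2 difference was -1.49 (SE 0.452; adjusted p = 0.0154 in limma). The call was lost without stage 19 (log2 change -1.22, adjusted p = 0.0760), and the adjusted p over 23 alternatives ran from 0.00125 to 0.0760. The change to early tailbud was -0.85 (SE 0.432, adjusted p = 0.290) and was not called.

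The second most abundant member, comp269529_c3, had an early mean of 133 ± 22.5 (SD, 7 libraries), with values from 105 to 177 and a median of 131. It held 113 at stage 12 and then read 52.7, 73.9 and 48.25 at stages 12.5, 13 and 13.5. At stages 15 and 16 it was at 13.0 and 15.2. Here stage 13, of the smaller set, stood above both neighbours, the opposite of comp257605_c2.

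Later values of comp269529_c3 stayed between 11.1 and 18.8 as deposited. The scaling factor was 0.612 at stage 15 and 1.42 at stage 36, so a like deposited value is lower at stage 36 after scaling. Stages 18, 19 and 20 gave 11.1, 18.8 and 17.2, stages 22, 23, 24, 26 and 29 gave 13.9, 13.7, 17.85, 12.8 and 11.1, and stages 32, 35 and 36 gave 15.2, 15.2 and 16.0. The first change was -2.22 (SE 0.274, limma adjusted p = 4.16e-05), with no overlap between windows, and it was called in all 23 alternatives. The second was -0.35 (SE 0.262, adjusted p = 0.493), with overlapping windows.

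The 2 members that had fallen furthest by stage 12 were comp247148_c0 and comp267074_c0, whose stage 12 values of 5.02 and 4.77 compare with early means of 13.0 and 11.9. Stage 12 is part of the first change, so for both members this choice favours a smaller fall there. The early values of comp247148_c0 ran from 9.89 to 19.5 with a median of 12.9. It read 5.02, 5.9, 3.88 and 5.43 at stages 12, 12.5, 13 and 13.5, without a steady fall, and 2.08 and 1 at stages 15 and 16. Its values were then 0.34, 0.49 and 0.44 in late neurula and 0.6, 0.26, 0.09, 0.19 and 0 in early tailbud. They were 0.09, 0.42 and 0 in late tailbud. The timing depends on the scale, since the level stayed at 50% or less of the early mean from stage 12 as deposited and from stage 15 after scaling. The component ended at or near 0. Its first change was -2.28 (SE 0.256, limma adjusted p = 2.01e-05) without overlap, and its second was -0.28 (SE 0.245, adjusted p = 0.557).

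For comp267074_c0 the early values ran from 7.73 to 21.9, the latter at stage 0, with a median of 11.2. It read 4.77, 2.67, 3.87 and 1.99 at stages 12 to 13.5 and 0.7 and 0.98 at stages 15 and 16. Late neurula values of 1.12, 2.52 and 1.77 overlapped those of stages 12 to 13.5. Early tailbud values were 0.91, 1.66, 2.29, 1.77 and 2.41, and late tailbud values 2.69, 1.3 and 2.07, all at or above the 2 mid-neurula libraries except stage 22. Its first change, -0.74 (SE 0.3005, limma adjusted p = 0.0563), was not called. Without stage 13.5 it was -0.92 (adjusted p = 0.0257), without stage 19 it was -0.92 (adjusted p = 0.0464), and without stage 29 its adjusted p was 0.0492. It stayed uncalled in 15 of 23 alternatives, with adjusted p of 0.1795 without stage 18 and up to 0.249 over all 23.

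The 2 members that held on longest, by their stage 13.5 value, were comp260200_c1 at 0.827 and comp266179_c0 at 0.752 of the early mean. Stage 13.5 is part of the first change, so for both members this choice favours a larger fall there. The early values of comp260200_c1 ran from 7.58 to 19.9 with a median of 11.5. It read 8.09, 7.62, 3.46 and 10.1 at stages 12 to 13.5, then 2.29 and 0.6 at stages 15 and 16. Late neurula values were 3.68, 2.43 and 2.56. Early tailbud values were 4.24, 2.75, 0.52, 3.16 and 0, and late tailbud values 1.7, 2.84 and 0. The low readings at stages 13, 16, 24, 29 and 36 all belong to the smaller library set. Its first change was -1.17 (SE 0.506, limma adjusted p = 0.0708), with stage 13 overlapping late neurula. The change was -1.44 without stage 13 (adjusted p = 0.0401), -1.35 in the larger set alone (adjusted p = 0.00957), and its adjusted p was 0.0294 without stage 29. It too stayed uncalled in 15 of 23 alternatives, and adjusted p over all 23 reached 0.219.

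For comp266179_c0 the early values ran from 6.98 to 16.6 with a median of 9. It read 8.06, 3.53, 7.2 and 8.39 at stages 12 to 13.5 and 1.64 and 0.98 at stages 15 and 16. Late neurula values were 1.23, 1.86 and 5.44, and the last of these overlapped stage 12.5. Early tailbud values were 1.15, 2.12, 3.46, 2.23 and 2.07 and late tailbud values 2.66, 2.48 and 2.45, all as deposited. The first change was -1.27 (SE 0.355, limma adjusted p = 0.00975). The call was lost without stage 18 (log2 change -1.001, adjusted p = 0.0529) and in the larger set alone (-1.08, adjusted p = 0.0625), and adjusted p over 23 alternatives ran from 0.00179 to 0.0625.

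The only member called between late neurula and early tailbud was comp264034_c0. Its early values ran from 55.6 to 82.8 with a median of 67.25, and it read 52.55, 28.2, 37.7 and 20.4 at stages 12 to 13.5. It was at 6.58 and 8.43 at stages 15 and 16, and at 9.44, 6.34 and 3.88 at stages 18, 19 and 20. Early tailbud values were 2.21, 1.19, 1.38, 1.32 and 3.8, and late tailbud values 2.04, 3.16 and 2.77. The level thus dropped again after mid neurula, and the lowest late neurula library lay only just above the highest early tailbud library.

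For comp264034_c0 the first change was -2.37 (SE 0.379, limma adjusted p = 0.00028) and the second -1.51 (SE 0.363, adjusted p = 0.0474). The second call was lost in 14 of 23 alternatives, with adjusted p from 0.00166 to 0.249 over all 23. Leaving out a library of either window ended it for stage 18 (-1.17, adjusted p = 0.249), stage 19 (-1.51, 0.134), stage 23 (-1.41, 0.0701), stage 24 (-1.47, 0.0870) and stage 26 (-1.42, 0.104). Leaving out stage 12, 12.5, 13 or 13.5, which only share the estimate of the spread, gave adjusted p of 0.0547, 0.0760, 0.0681 and 0.0539.

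The 14 members that met the rule on scaled values too are those that met all its criteria on both scales. Their scaled fall had a median of 9.50-fold and ran from 8.16 to 31.6, and their deposited fall ran from 14.7 to 57.3-fold. In the comparison of stages 18 to 20 with 12 to 13.5, 13 of the 14 were called lower. So were 90 of the other 98 members and 9.43% of all components tested, so these calls do not set the 14 apart from other members. The remainder of these 14 at stages 22 to 29 ran from 0.0972% to 23.1% of the early mean, with a median of 8.85%. Some of the steepest falls were thus followed by a level above the median remainder of all members.

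The steepest fall was that of comp254969_c1, which together with the members below was chosen after values were seen. It was at 66.6, 65.5, 55.3, 48.6, 46.6, 37.4 and 35.1 at stages 0, 4, 8, 9, 10, 10.5 and 11, and already declined in the early window. It read 22.7, 5.87, 8.45 and 3.61 at stages 12 to 13.5 and 1.06 and 0.71 at stages 15 and 16, and no later value exceeded 0.59.

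Some members were almost lost and others kept a large remainder. The lowest percentages at stages 22 to 29 were those of comp267271_c0, at 0.0972% of its early mean of 12.3, and comp225031_c0, at 0.121% of 16.6. The latter was listed at 0 at stages 20, 22, 23, 24, 29, 32, 35 and 36, and at 0.1 at stage 26.

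The largest remainders were 32.0% for comp249747_c0 and 44.0% for comp221786_c0. The level of comp221786_c0 was 3.53 and 1.44 at stages 15 and 16, rose to 14.3 at stage 24, and was 2.43 and 3.13 at stages 35 and 36. Its low at stages 15 and 16 was thus followed by a partial return. The scaled log2 change from stages 18 to 20 to stages 22 to 29 was 0.91 for comp221786_c0 (SE 0.365, limma adjusted p = 0.186), which was not called.

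Values of a subset of members at stage 13 departed from the neighbouring stages. The deposited stage 13 value was below both stage 12.5 and 13.5 in 34 members (30.4%) and above both in 64 (57.1%), against 18.2% and 68.2% of the other early components. It was under 50% of both neighbours in 13 members (11.6%) and in 3.56% of others, and in 13 members and 3.96% of others after scaling. No test was run on these counts, since the subset was noticed in the data.

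The same 13 members were also low in the egg library of that set. In 11 of the 13 the stage 0 value was below every other library of stages 4 to 11, against 21 of the other 99 members. The median log2 difference of stage 0 from the mean of stages 4 to 11 was -1.39 for the 13 and 0.13 for the 99. Across all 112 members, the deviations at stage 13 and stage 0 had a Spearman rho of 0.643 and a Pearson r of 0.842. Across the 4245 others rho was 0.608 and r was 0.635. The r of members includes 2 members far from the rest on both deviations, comp284153_c0 and comp199360_c0. Both libraries belong to the smaller set, and the part of preparation, sequencing or embryo batch in this was not tested.

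The 2 members listed at 0 at stage 0 carried this pattern furthest. The deposited value of comp284153_c0 was 0 at stage 0 and 40.1 at stage 4, then 19.6, 0.11 and 9.61 at stages 12.5, 13 and 13.5. The value of comp199360_c0 was 0 at stage 0 and 31.2 at stage 4, then 11.8, 0 and 12.0 at the same 3 stages. In both, libraries of the larger set on either side of stage 13 were well above it.

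The low readings bear on which members met the rule. At stage 15, of the larger set, the 13 had a median of 15.0% of the early mean and the other 99 of 9.91%, while at stage 16, of the smaller set, the order was reversed, at 4.55% and 8.41%. In the comparison of stages 18 to 20 with 12 to 13.5, 8 of the 13 and 95 of the 99 were called lower. The share of all components tested was 9.43%. Stage 13, by which the 13 were picked, is part of this comparison. Fewer calls among the 13 were thus favoured by their choice, and the split is a description only. When the rule was applied to the larger library set alone it gave 92 components, of which 70 were members (62.5% of the members and 76.1% of the 92). That setting also takes mid neurula from stage 15 alone, and the members it lost were not compared with the 13. At stage 29, which belongs to the smaller set, 23 members (20.5%) and 8.55% of others were under 50% of both neighbours. The median member value there was 1.735, and 38 members were under 1, in the library of least relative depth. Others were at a median of 57.2% of their early mean, so the 2 shares were taken at unlike levels.

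**Figure D5:**
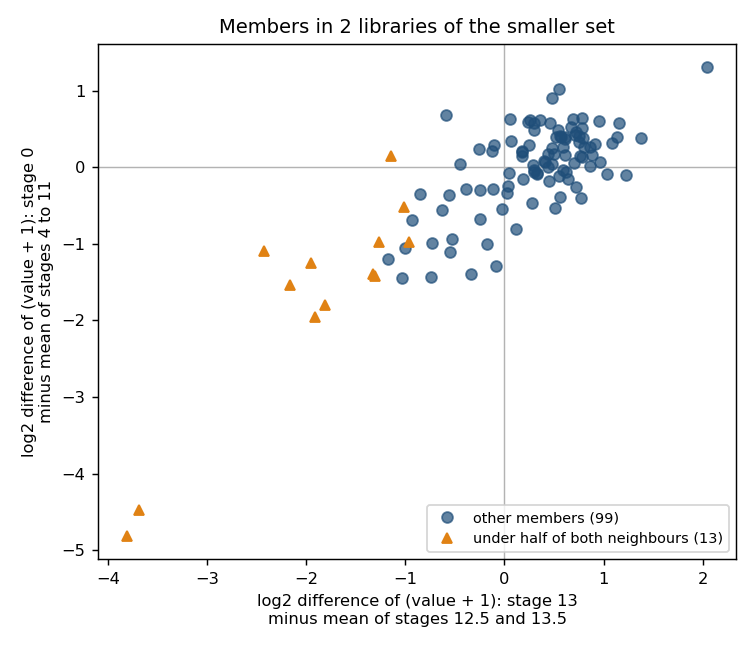
Log2 difference of (deposited value + 1) at stage 13 from the mean of stages 12.5 and 13.5 (horizontal axis) and at stage 0 from the mean of stages 4 to 11 (vertical axis), 1 point per member. Orange triangles are the 13 members under 50% of both neighbours at stage 13, and blue circles the other 99. Most triangles lie at the lower left, with 2 far from the rest near -4 on both axes.

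Component identifiers carry a number and a suffix, and components with the same number can come from related sequences in some assemblies; how this one was made is not stated. Of the members, 64 shared their number with 151 components outside the list, and 2 members, comp263564_c1 and comp263564_c2, shared one with each other. Of those 151, 9 had an early mean of at least 10. At stages 15 and 16 these 9 stood at 16.1% to 79.7% of their early mean, with a median of 29.6%, and 7 of them were below the median of the other early components, 53.8%. The highest of the 9 was comp267074_c2, which kept 79.7% where comp267074_c0 kept 7.05%. The lowest was comp249747_c1, which kept 16.1% where comp249747_c0 kept 11.8%. Whether such components divide the reads of 1 gene was not tested, and the level of a member with a related component is uncertain to that extent.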

How the data were processed

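RNA of whole sturgeon embryos was depleted of ribosomal RNA and made into 1 library for each of 24 stages, per the labels' protocols. The values are a signal for each assembled component, normalized by the authors before deposit. The unit (FPKM or TPM), the assembler and any scaling between libraries are not given in the sources used here. Tools named in the submitters' processing notes, with no role stated, are RSEM, Bowtie, Trimmomatic and CASAVA 1.8.2. Each of the 24 columns matched a stage in the labels (0 unmapped). The deposited values are not read counts, since 0.458% of those above 0 are whole, so no count model was used.

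Values were divided by median-of-ratios factors, log2(scaled value + 1) was taken, components reaching 1 in 4 or more libraries were retained (48818, with all 112 members), and limma 3.58.1 (R 4.3.3) was fitted to the whole table with a mean-variance trend, robust variances and Benjamini-Hochberg adjustment at 0.05. A component with a single value in all 12 libraries of the window comparisons was left out there, which gave 48817. Fold changes on this scale understate those of low components. Stages had no replicates: a p-value reflects the spread of successive stages inside a window, development included. The planned slope test over stages 0 to 11 is not reported as a test, since those libraries chose the members. The fits were also run on simulated data with independent noise. Apart from the changes put in, these data held no library sets or development inside a window, so they do not test those limits. Relative depth came from the steps of low values, within 0.1 log2 of the fit for 95.7% of 276 library pairs. The 2 library sets came from the first principal component (30.6% of variance) of the residuals about stage of 2205 abundant components that are not members. Pandas 2.3.3, numpy 2.4.6 and matplotlib 3.10.9 were used.

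Members, windows and lists were chosen with earlier results of these data known. Named members are the 2 highest by early mean, the 2 lowest by the ratio of stage 12 to the early mean, the 2 highest by that of stage 13.5, the 2 lowest and 2 highest called changes from late neurula to early tailbud (1 was called), and by value 3 on each side of the 8-fold threshold; others are said to be chosen after their values were seen. Alternatives were other scalings, pseudocounts, filters, variance estimates, library sets, rule thresholds and leaving out each library.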

Additional observations from a re-analysis of the deposited data

Results flagged for a closer look

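Of 24 combinations of a named member and a window tested for a single outlying library, 2 were flagged, and chance flags about 1 in 20. In comp257605_c2 the stage 0 library, at 266.64, lay far below the other 6 libraries of stages 4 to 11. In comp247148_c0 the stage 4 library, at 19.53, lay far above the other libraries of stages 0 to 11. The early means of both members, on which the choice of members rests, include these libraries.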

How the results depend on the processing

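The number of components that met the rule depended most on the scaling and the thresholds. It was 112 as deposited, 14 in values scaled by median of ratios, 24 with unweighted trimmed-mean factors (21 of them members), 185 with an early mean of at least 5, 55 with at least 20, 300 with a fall of at least 4-fold (the limit of the list) and 11 with at least 16-fold. With equal column totals it was 149, 103 of them members. The count of members lower at stages 18 to 20 than at 12 to 13.5 stayed between 92 and 107 in all 23 alternatives, and between 97 and 106 without 1 library. The share of all components called lower ran from 1.07% without a filter to 22.5% with a filter at 5, and from 7.47% to 10.4% without 1 library. In each alternative 0 members were higher, where 4.69% to 45.3% of all components were. The count lower at stages 22 to 29 than at 18 to 20, 1 in the reported fit, was 0 as deposited, with equal column totals, with a pseudocount of 2, without a filter and in the larger library set. It was 2 in one fit over all 24 libraries, where 3.63% of all components were called lower. Without 1 library it was 0 to 2, where 0% to 1.70% of all components were. The count higher was 1 with a filter at 5, 2 with a term for the library set and 5 in one fit over all 24 libraries. The shares of all components called higher there were 3.78%, 2.49% and 8.54%. Without 1 library the count was 0 to 2, and the 2 came without stage 22, where 4.66% of all components were called higher. The ratio of the members' early to later share was 12.8, and it was 17.3 without the 10 most abundant components and 8.58 in scaled sums. Without a filter the call of comp257605_c2 at stages 18 to 20 was lost (limma adjusted p = 0.0691), as was that of comp266179_c0 (adjusted p = 0.0618). The cause of these differences was not tested. No paired analysis was possible because no stage was sequenced more than once and the labels number no replicates. Absolute depth is unknown, so levels near 0, above all at stage 29, the library of least relative depth, cannot be told from small remainders.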
